A study of Mus musculus with 3 samples.

Results

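The miR-130/miR-301 family of the mouse comprises miRNAs that share the same seed, the bases 2 to 8 with which a miRNA pairs with its target mRNAs. Its members Mir130a, Mir130b, Mir301 and Mir301b were chosen by name, as 4 of the 1005 mouse hairpins in the RefSeq table used here, and all 4 were found in the data by matching each hairpin with the mismatches that the alignments recorded. Small RNA was sequenced from 3 libraries of MIN6, a line of insulin-secreting cells derived from a mouse insulinoma. All 3 libraries came from cells in DMEM with 25 mM glucose and serum, there was no second condition or control group, and the study describes the libraries as biological replicates. No comparison between conditions was therefore possible, and each value is given per library and as mean ± SD over the 3 libraries.

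A miRNA gene is transcribed into a hairpin whose 5′ side (5p arm) and 3′ side (3p arm) can each yield a mature RNA of about the length of the reads described here. Usually one arm is loaded into an Argonaute protein and guides it to target mRNAs, while the other arm is degraded. In this family the 3p arm is the usual guide, and its members are known repressors of transcripts such as Pparg, which encodes a nuclear receptor for lipid metabolism. Enzymes can also add bases to the 3′ end of a mature miRNA, which are seen as a last base that does not match the genome (3′ non-templated addition).

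The mature sequences are shown with the seed in capitals because the shared seed defines the family and the remaining bases decide how far the members can be told apart in sequencing. They are taken from RefSeq (GRCm38.p6) and written 5′ to 3′.
miR-130a-3p: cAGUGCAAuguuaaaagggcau
miR-130b-3p: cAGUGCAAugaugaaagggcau
miR-301a-3p: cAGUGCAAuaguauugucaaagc
miR-130a-5p: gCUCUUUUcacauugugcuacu
miR-130b-5p: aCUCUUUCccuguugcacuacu
miR-301a-5p: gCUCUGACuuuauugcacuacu
miR-301b-5p: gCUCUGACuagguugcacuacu

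The 3p arms of Mir130a and Mir130b differ at 2 positions and end in the same 6 bases. On the opposite arms, miR-301a-5p and miR-301b-5p differ at 3 of 22 positions and share their seed, whereas miR-130a-5p and miR-130b-5p differ at 7 positions, including the seed. RefSeq lists the same 3p seed for Mir721, Mir130c, Mir6341 and Mir6389 as well, and none of these hairpins could be placed in the alignments at the threshold of 20 bits used for naming a locus.

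On the mm9 positions of the deposited alignments, Mir130a lay on the minus strand at chr2:84581272-84581335 and its 3p reads started at 84581294. Mir130b was placed on the minus strand at chr16:17124154-17124235, with 3p reads starting at 17124185 and 5p reads at 17124223. Mir301b, its neighbor, was placed on the same strand at chr16:17124493-17124589, with 257 bases between the hairpins and 3p reads starting at 17124535. Mir301, which encodes miR-301a, was placed on the plus strand at chr11:86926506-86926591, with 3p reads starting at 86926556. In the GENCODE annotation of GRCm38, Mir301 is in an intron of Ska2, a gene for a protein of the spindle and kinetochore complex, on the same strand. Mir130b and Mir301b are each in an intron of 2610318N02Rik on its strand, and Mir130a overlaps no other gene.

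The libraries held 9269795, 10816006 and 10218743 mapped reads. A total of 3 reads, the limit that a count of 0 allows, corresponds to 0.324 RPM (reads per 1000000 mapped reads) in the smallest library. As a check of the cell type, Mir375, the hairpin of the typical beta cell miRNA, was read at 345170, 368891 and 383009 RPM. Reads come from bulk RNA, so the number of cells with a miRNA and its amount per cell cannot be told apart. The reads carried no molecular identifiers, and all intervals given here cover counting error only.

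The 4 hairpins together gave 5220, 4519 and 5007 RPM in libraries 1, 2 and 3, or 4915 ± 359 RPM (SD, n = 3). This was 0.522%, 0.452% and 0.501% of the mapped reads. For scale, Mir148a, which belongs to another seed family, gave 14833 ± 834 RPM (SD, n = 3), and its less abundant relatives Mir148b and Mir152 gave 2680 ± 278 and 211 ± 7.49 RPM. Of the family's own reads, 96.6% ± 0.33 (SD, n = 3) lay on the 3p arms.

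The most abundant member was miR-301a-3p, at 2609, 2218 and 2447 RPM in libraries 1, 2 and 3. It held 51.1% ± 0.67 (SD, n = 3) of all 3p reads of the family. Its level was 2.26 ± 0.02 times that of miR-130b-3p, and the lowest of its 3 values was far above the highest value of any other arm. Among all 5′-starts in the libraries it ranked 39th, 47th and 39th by reads.

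The arms miR-130b-3p and miR-130a-3p had similar levels. The arm miR-130b-3p was read at 1145, 974 and 1094 RPM, and miR-130a-3p at 984, 885 and 999.98 RPM. Within each library miR-130b-3p was the higher of both, by factors of 1.16, 1.10 and 1.09, although the ranges of their levels over the libraries overlapped. The order also depended on reads with mismatches, because only 43.5% ± 1.32 of the miR-130b-3p reads aligned exactly, compared with 73.5% ± 1.58 of the miR-130a-3p reads (SD, n = 3). Counting exact alignments only, the order was reversed, with 486, 420 and 492 RPM for miR-130b-3p and 715, 642 and 753 RPM for miR-130a-3p. The ratio of miR-130b-3p to miR-130a-3p was then 0.66 ± 0.02 (SD, n = 3), in place of 1.12 ± 0.04.

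The least abundant 3p arm was miR-301b-3p, read at 302, 272 and 310 RPM, or 295 ± 20.1 RPM (SD, n = 3). The arm miR-130a-3p was 3.25 ± 0.02 times as abundant, and the ranges of the 2 arms did not overlap. Although Mir130b and Mir301b lie within the same gene on the same strand, miR-130b-3p was 3.63 ± 0.14 times as abundant as miR-301b-3p (SD, n = 3). The level of miR-301b-3p depends more than that of the other members on how shared reads were assigned, as described below. All 4 of the 3p arms had their lowest value in library 2.

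**Figure D1:**
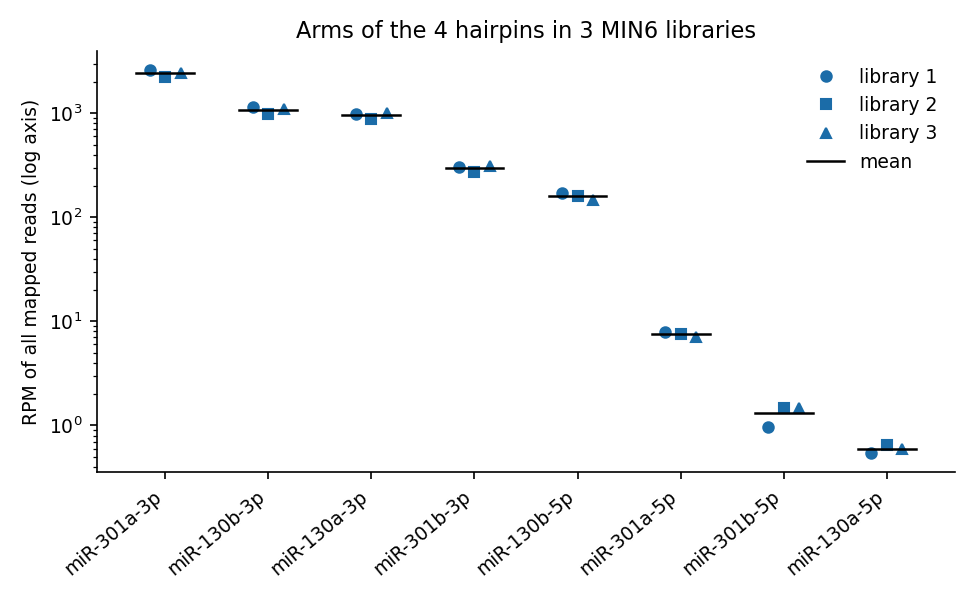
RPM of the 8 arms of the 4 hairpins on a log axis, with a symbol for each of the 3 MIN6 libraries and a line at the mean. The 4 arms with the family seed lie between 272 and 2609 RPM, miR-130b-5p lies below them, and the other 5p arms are below 8 RPM.

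The 5p arms differed far more between the members than the 3p arms did. The arm miR-130b-5p was read at 170, 161 and 146 RPM and made up 13.0% ± 1.19 (SD, n = 3) of the reads of its hairpin. With exact alignments only, this share was 22.2% ± 2.31. The arm reached 0.54 ± 0.06 times the level of miR-301b-3p, and its own range lay below that of miR-301b-3p in the counts as deposited. By contrast, miR-301a-5p had 74, 81 and 73 reads, or 7.54 ± 0.42 RPM, which was 0.31% ± 0.02 of the reads of its hairpin.

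The remaining 5p arms were close to the detection limit. The arm miR-301b-5p had 9, 16 and 15 reads, and miR-130a-5p had 5, 7 and 6 reads. In RPM these were 1.31 ± 0.29 and 0.59 ± 0.05 (SD, n = 3). The arm miR-301b-5p was the higher in each library, and the ranges over the libraries did not overlap. On so few reads, however, the 95% Poisson intervals of the 2 arms overlapped in each library, which is not a test of their difference. In library 1, for example, the interval was 0.444 to 1.84 RPM for miR-301b-5p and 0.175 to 1.26 RPM for miR-130a-5p. The 3p arm thus had 1632 ± 237 reads per 5p read at Mir130a and 6.76 ± 0.71 at Mir130b, or 3.53 ± 0.49 with exact alignments only (SD, n = 3).

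The seed of a miRNA is set by the position of its first base, so the 5′-starts were examined for shifted isomiRs. On every arm with a mature RefSeq entry, the start with most reads was the RefSeq start. It held 99.6% ± 0.04 of the 3p reads at Mir301, 99.4% ± 0.07 at Mir130a, 98.2% ± 0.32 at Mir301b, where the start itself was taken from the reads, and 97.0% ± 0.31 at Mir130b (SD, n = 3).

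The most frequent shifted form was miR-130b-3p+1, which begins 1 base downstream and therefore has the seed GUGCAAU. It had 309, 253 and 345 reads, or 2.80% ± 0.36 of the reads of the arm (SD, n = 3). Although a minor form of its own arm, at 30.2 ± 5.87 RPM it was more abundant than miR-301a-5p in each library.

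The other shifted forms with at least 1% of their arm in every library were rarer. The arm miR-301b-3p had 51, 44 and 64 reads at the start 1 base downstream, or 1.78% ± 0.26 of the arm. On miR-130b-5p, 33, 56 and 42 reads began 1 base upstream, or 2.71% ± 0.57 of the arm (SD, n = 3). The only other such form, on miR-301a-5p, rested on 2, 1 and 1 reads.

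The members also differed in their 3′ ends. At the main start of miR-130b-3p, 52.2%, 50.99% and 48.4% of the reads had a mismatched last base in libraries 1, 2 and 3. The values were 24.1%, 24.2% and 20.8% for miR-130a-3p, 12.3%, 13.0% and 13.5% for miR-301b-3p, and 5.96%, 6.57% and 6.06% for miR-301a-3p. The ranges of the 4 arms did not overlap, so for visible mismatches the spread between members exceeded that between libraries. An added base equal to the next genomic base is not counted, however. At the most frequent templated end this base is C on miR-130a-3p and miR-130b-3p, and A on miR-301a-3p and miR-301b-3p. The order of these 2 pairs is therefore that of visible mismatches and need not be that of all additions.

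Among the 388 5′-starts of any RNA with at least 1000 reads in every library, the median share with a mismatched last base was 2.81%. Of these starts, 15 had a higher share than miR-130b-3p, 47 a higher share than miR-130a-3p, 85 than miR-301b-3p and 132 than miR-301a-3p. These were 3.87% of the starts for miR-130b-3p and 34.0% for miR-301a-3p. The family was chosen by name, so these ranks are a description of the members. They too count visible mismatches only, since an added base equal to the genome is not seen at any start.

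On the 3p arms, the most frequent mismatched last base was U. A mismatched U ended 43.4%, 42.0% and 39.4% of the reads of miR-130b-3p, and the 95% Wilson interval of library 1 was 42.5% to 44.4%. It ended 16.9%, 16.4% and 14.4% of the reads of miR-130a-3p. The share was lower in the pair from Mir301b and Mir301, at 10.6% ± 0.21 for miR-301b-3p and 5.64% ± 0.33 for miR-301a-3p (SD, n = 3). In both miR-130a-3p and miR-130b-3p the share with U was lowest in library 3, and the differences between libraries were smaller than those between the arms.

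A mismatched A ended 8.06% ± 0.08 of the miR-130b-3p reads and 3.91% ± 0.57 of the miR-130a-3p reads (SD, n = 3). On the arms of Mir301 and Mir301b it was rare, at 0.09% ± 0.02 for miR-301a-3p and 0.32% ± 0.14 for miR-301b-3p. In both of these hairpins, however, the genome has A after base 23, where most reads ended. An A added there matches the genome and is not counted. The A shares of these arms can therefore not be compared with those of miR-130a-3p and miR-130b-3p. A mismatched C was seen in 2.67% ± 0.20 of the miR-130a-3p reads and 0.36% ± 0.13 of the miR-130b-3p reads. A tail of 2 or more mismatched bases was seen in at most 0.50% of the reads of any of the 4 arms in any library. The opposite arm of Mir130b, miR-130b-5p, had a mismatched last base in only 2.52% ± 0.39 of its reads, with G in 1.01% ± 0.16, C in 0.56% ± 0.04, U in 0.51% ± 0.05 and A in 0.45% ± 0.17 (SD, n = 3).

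**Figure D2:**
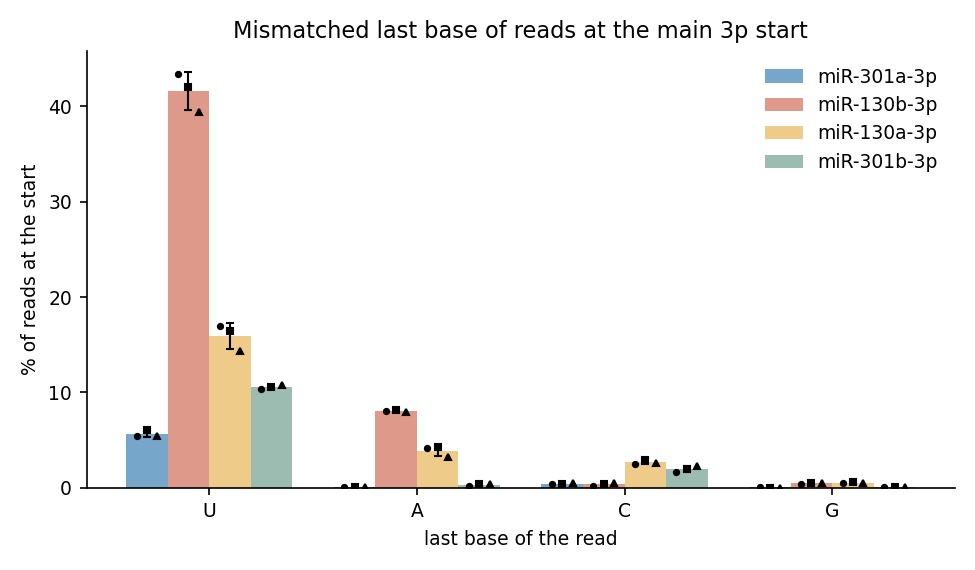
Share of the reads at the main start of each 3p arm whose last base mismatches the genome, by that base (x axis). Bars are means of the 3 libraries, error bars are SD and symbols are libraries. U is the most frequent mismatched last base on all 4 arms and reaches 41.6% on miR-130b-3p, compared with 15.9% on miR-130a-3p. Added bases equal to the genome are not seen.

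The comparison of miR-130a-3p with miR-130b-3p could be made at the same templated end, since both arms end in the same bases and the next genomic base after base 22 is C in both hairpins. An added U or A after base 22 is thus visible in both, whereas an added C is not, and neither is a U added after base 21, where the genome itself has U. Among reads of miR-130b-3p whose templated part ended at base 22, 53.1%, 52.6% and 50.4% carried 1 added U. For miR-130a-3p the shares were 26.5%, 26.2% and 22.7%. The difference was larger than the spread between libraries, with every miR-130b-3p library above every miR-130a-3p library. An added A at the same end was also more frequent on miR-130b-3p, at 9.54% ± 0.11 compared with 5.71% ± 0.79 (SD, n = 3).

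The 3p arms of Mir301 and Mir301b carried visible U at the same ends, after base 23 and after base 25. In both hairpins, base 23 is followed by A and base 25 by C, so that an added U is visible after base 23 and after base 25, but not after base 24, where the genome has U. After base 23, where most reads ended, 2.58% ± 0.18 of the miR-301a-3p reads and 5.17% ± 0.11 of the miR-301b-3p reads carried an added U (SD, n = 3). After base 25 the shares were 41.1% ± 2.57 and 46.5% ± 1.62. Reads with a templated part of 25 bases were a minority, 7.96% ± 0.42 of miR-301a-3p and 14.2% ± 1.06 of miR-301b-3p (SD, n = 3), and they held most of the visible U of these arms. With reads of 20 to 25 nt only, which leaves out a U added after base 25, a mismatched last base was found in 2.92% ± 0.18 of miR-301a-3p and 6.55% ± 0.30 of miR-301b-3p.

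Read lengths differed accordingly. The arm miR-301a-3p was almost uniform, with 87.5%, 86.3% and 86.4% of its reads at 23 nt. The arm miR-130b-3p had 49.4% ± 2.04 of its reads at 23 nt, 30.4% ± 0.44 at 22 nt and 15.8% ± 1.35 at 21 nt (SD, n = 3). Its 23 nt reads were mostly those with 1 base added after base 22, and among its exact reads the most frequent length was 22 nt. The arm miR-130a-3p was the most evenly spread, with 44.7% ± 1.59 of the reads at 22 nt, 20.3% ± 0.16 at 21 nt, 19.5% ± 1.75 at 23 nt and 15.2% ± 0.39 at 20 nt.

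The arm miR-301b-3p had more long reads than miR-301a-3p. Reads of 24 nt made up 15.6% ± 0.55 of miR-301b-3p and 3.60% ± 0.25 of miR-301a-3p, and reads of 25 nt made up 7.88% ± 0.84 and 4.88% ± 0.45 (SD, n = 3). The opposite arm miR-130b-5p was mostly of 1 length, with 81.8% ± 0.87 of its reads at 22 nt. Over the 388 starts described above, the median share of the most frequent length was 75.0%, and 127 starts were more uniform than miR-301a-3p whereas 327 were more uniform than miR-130a-3p.

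**Figure D3:**
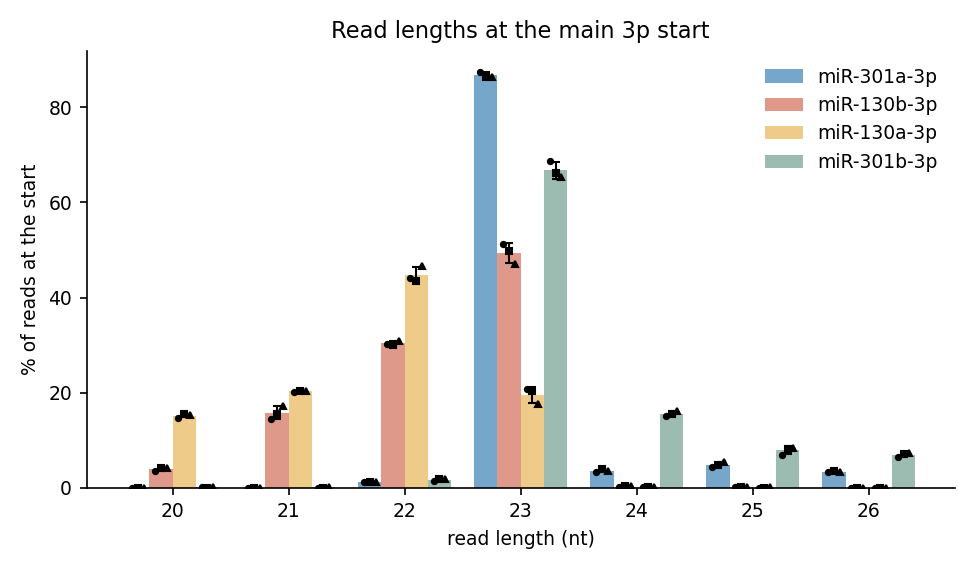
Share of the reads at the main start of each 3p arm by read length in nt. Bars are means of the 3 libraries, error bars are SD and symbols are libraries. Reads of miR-301a-3p are concentrated at 23 nt (86.8%), those of miR-130a-3p are spread from 20 to 23 nt, and miR-301b-3p reaches 26 nt.

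Mismatches inside the reads were concentrated at a few positions, which are counted here from 1 at the 5′ end of the miRNA. At positions covered by at least 50 reads in every library, 12 substitutions on 6 arms reached 1% of those reads in each library. As aligned, 11 of these were from A to C, and none of the 12 lay in the seed. The remaining one, G10C of miR-301b-3p, belonged to the same reads as A10C of miR-301a-3p, which is among the 11. These reads are described below, and whether they come from an A or a G cannot be told. A further 7 mismatches reached 1% on fewer reads, at positions 23 and 24 of miR-130a-3p and miR-130b-3p, which lie past the end of the mature sequences. At position 24 of miR-130a-3p the RefSeq hairpin does not reach the base, so the genomic base is not named. The substitution A11C was found in 789, 797 and 887 reads of miR-130b-3p, or 7.88% ± 0.28 (SD, n = 3). On miR-301a-3p, A20C was found in 5.92% ± 0.24 of the reads and A24C in 8.99% ± 0.22 of the reads long enough to cover it. Both were also found on miR-301b-3p, A20C in 5.01% ± 0.78 and A24C in 13.1% ± 1.39 (SD, n = 3). On miR-130a-3p, only A21C passed the limit, at 1.47% ± 0.20, and on miR-130b-5p, A20C was found in 9.84% ± 0.75 and A17C in 2.15% ± 0.31 (SD, n = 3). On the rare miR-301a-5p, A12C was found in 8, 8 and 13 reads, or 13.3% ± 4.33, and A20C in 3, 7 and 5 reads.

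Among all mismatches before the last base, C was the base read in 51.7%, 51.6% and 49.9% of the cases over all alignments of the libraries. The share was 90.9% ± 0.02 on miR-301a-3p, 76.9% ± 1.30 on miR-130b-3p and 51.01% ± 4.53 on miR-130a-3p (SD, n = 3). Whether these bases come from the RNA or from the sequencing was not tested. Within the seed of the 3p arms, the most frequent of these was A7C, found in 0.70% ± 0.08 of the miR-130a-3p reads and 0.22% ± 0.03 of the miR-301a-3p reads.

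**Figure D4:**
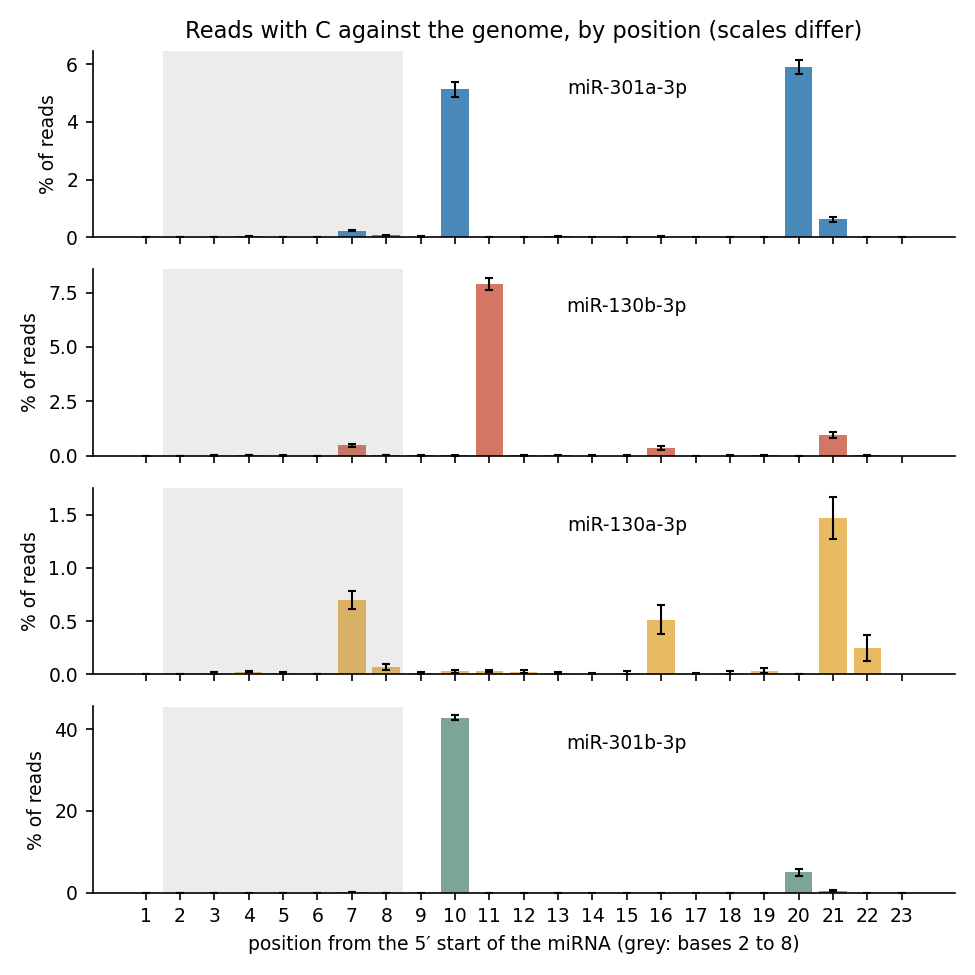
Share of the reads covering each position that carry C against the genome, by position from the 5′ end, with the seed shaded. Bars are means of the 3 libraries and error bars are SD, and the vertical scales differ between the 4 arms. Position 10 stands out on miR-301a-3p (5.13%) and miR-301b-3p (42.7%), position 11 on miR-130b-3p (7.88%), and position 20 on miR-301a-3p (5.92%) and miR-301b-3p (5.01%).

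Reads with A10C relative to miR-301a-3p also counted toward miR-301b-3p. A read with C at position 10 has 1 mismatch to Mir301 and 1 mismatch to Mir301b, so that it fits both hairpins equally, and the deposited counts gave the same value to each locus. These divided reads amounted to 1162, 1261 and 1323 reads at each of the loci, and 99.8% ± 0.11 of them had C at position 10 (SD, n = 3). They made up 4.81%, 5.26% and 5.29% of the miR-301a-3p reads but 41.5%, 42.9% and 41.7% of the miR-301b-3p reads. From which of the hairpins they come cannot be told apart from the deposited alignments. A read of either gene in which position 10 was changed to the base of the other gene cannot be recognized in these data.

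Without the divided reads, miR-301b-3p had 177, 156 and 181 RPM, or 171 ± 13.6 RPM (SD, n = 3). With all of them, it had 419 ± 26.6 RPM. The level of miR-301a-3p moved much less, from 2301 ± 192 RPM without these reads to 2549 ± 202 RPM with all of them (SD, n = 3). The ratio of miR-301a-3p to miR-301b-3p was 8.22 ± 0.38 with the reads divided and 13.5 ± 0.62 without them. Without these reads, the range of miR-301b-3p, 156 to 181 RPM, overlapped that of miR-130b-5p, 146 to 170 RPM. The order of the 4 arms with the family seed was the same in each case.

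**Figure D5:**
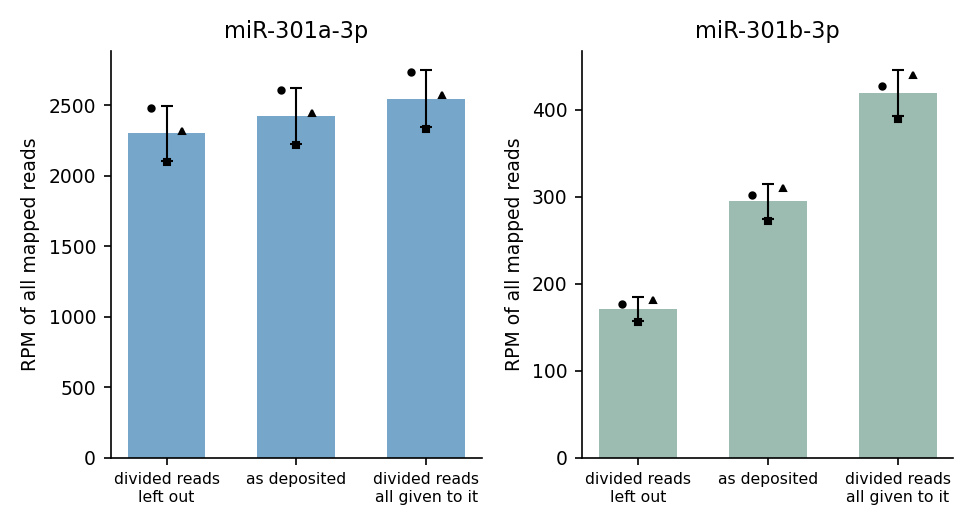
RPM of miR-301a-3p (left) and miR-301b-3p (right) when the reads that fit both hairpins equally were left out, divided as deposited, or all given to the arm shown. Bars are means of the 3 libraries, error bars are SD and symbols are libraries. For miR-301b-3p the mean ranges from 171 to 419 RPM, and for miR-301a-3p from 2301 to 2549 RPM.

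The divided reads could also be compared with the reads that fit only 1 of the hairpins. Among the divided reads at the main start, 89.3%, 86.9% and 88.9% were 23 nt long. The share was 87.4%, 86.3% and 86.3% for the undivided miR-301a-3p reads, and 53.6%, 50.4% and 47.7% for the undivided miR-301b-3p reads. The range of the divided reads overlapped that of miR-301a-3p and lay apart from that of miR-301b-3p, while their origin was not tested. The same order was found for a mismatched U at the last base, with 5.07% ± 0.69 in the divided reads, 5.67% ± 0.31 in undivided miR-301a-3p and 14.7% ± 0.60 in undivided miR-301b-3p (SD, n = 3).

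If all divided reads were counted at Mir301, they would make up 9.74% ± 0.49 of the miR-301a-3p reads, and if all were counted at Mir301b, 59.2% ± 0.71 of the miR-301b-3p reads (SD, n = 3). The substitution A20C can be assigned because the arms differ at position 10. It was found in 6.24% ± 0.24 of the undivided miR-301a-3p reads and in 8.66% ± 1.30 of the undivided miR-301b-3p reads. In the divided reads it reached at most 0.03% in any library. They already carry 1 mismatch, and the alignment of the study allowed 1 in the body of a read. Leaving them out thus raises the A20C share of miR-301b-3p, which was 5.01% with them. The A20C shares say nothing about the origin of the divided reads, which was not tested. Without the divided reads, a mismatched last base was found in 18.4% ± 1.13 of the miR-301b-3p reads in place of 13.0% ± 0.61. The 23 nt reads then made up 50.6% ± 2.92 and the 24 nt reads 25.0% ± 1.26 of miR-301b-3p. The contrast in 3′ ends between miR-301a-3p and miR-301b-3p was therefore wider without these reads.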

How the data were processed

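Small RNA was sequenced from 3 MIN6 libraries of 1 condition. According to the methods of the study, the authors trimmed the 3′-adaptor (cutAdapt 1.0), aligned reads without mismatches (Bowtie 0.12.7, at most 20 loci), merged the aligned regions (bedtools 2.17.0) and aligned the remaining reads to them with mismatches (SHRiMP 2.2.2). The submitters' processing notes name the build mm9. Each distinct alignment was deposited by the authors with an expected count of reads, with reads of several equally good loci divided among them, not normalized and not pooled. Reads were 14 to 41 nt long. Mismatched reads were only sought near exact ones, and an added base equal to the genome is not seen.

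Hairpins of RefSeq (GRCm38.p6) were placed on their own chromosome and strand, at starts with at least 15 reads, by the bases that mismatches exclude, with a threshold of 20 bits. Reversed hairpins stayed below it. The 5 arms listed in the expression table of the study matched its values within 0.2%, so their levels follow that table by construction. Alignments marked exact end 1 base early, which was corrected. Reads starting within 4 bases of an arm's start were summed per library and divided by the mapped reads (RPM). Ends, lengths and mismatches refer to the main start. The placement and the sums were tested on simulated data. Computation used Python 3.11.15, numpy 2.4.6, pandas 2.3.3, scipy 1.17.1 and matplotlib 3.10.9.

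No test was run, as there is no contrast between groups. Differences between arms were set against the spread over the 3 libraries, which the study describes as biological replicates, although the labels do not say how the cultures were kept apart. Named were both arms of the 4 hairpins, starts with at least 1% in every library, substitutions with at least 1% of at least 50 covering reads in every library (the minimum of 50 was set after their values were seen), and lengths with at least 5%. A7C, the comparison of ends at the same templated base, the division of reads between Mir301 and Mir301b and the reads before the 5p arms were examined after their values were seen. The members and lists were chosen with earlier results of these data known.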

Additional observations from a re-analysis of the deposited data

How the results depend on the processing

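Leaving out each library in turn moved none of the 8 main results by more than the SD over libraries. Values given for "the members" are the median of the 4 members. The family total was 4915 RPM, and it was 6871 RPM relative to the exactly aligned reads and 5596 RPM relative to the mapped reads of 16 to 27 nt. With exact alignments only, the total was 3390 RPM, the share of miR-301a in the 3p reads 60.3% in place of 51.1%, the ratio of miR-130b-3p to miR-130a-3p 0.663 in place of 1.12, and the ratio of miR-301b-3p to miR-130b-3p 0.261 in place of 0.276. The members' share of 3p reads was then 99.4% (99.6% otherwise), that at the main start 98.5% (98.8%) and that of the most frequent length 61.8% (58.1%). For Mir130b alone, the 3p share was 77.8% in place of 87.0%. Reads were taken as single-locus if their count was a whole number and they were not divided between Mir301 and Mir301b. A read divided elsewhere into whole numbers would remain among them. With these reads only, the ratio of miR-301b-3p to miR-130b-3p was 0.160, the 3p share 99.5%, the main start 98.2%, the mismatched last base 20.7% (18.0% otherwise) and the most frequent length 49.98%. With reads of 20 to 25 nt only, that ratio was 0.255, the mismatched last base 14.8% (2.92% in place of 6.20% for miR-301a-3p and 6.55% in place of 13.0% for miR-301b-3p) and the most frequent length 61.0%. A mismatch in any of the last 3 bases was found in 19.5% and a sole mismatch at the last base in 14.98%. With all divided reads given to Mir301, an alternative chosen after seeing the data, the share of miR-301a was 53.7%, the ratio of miR-301b-3p to miR-130b-3p 0.160, the 3p share 99.5%, the main start 98.2%, the mismatched last base 20.7% and the most frequent length 49.98%. With all given to Mir301b, these were 48.5%, 0.392, 99.7%, 99.0%, 16.9% and 61.3%. Depth limits miR-130a-5p, miR-301b-5p and the shifted form of miR-301a-5p, which rest on at most 16 reads per library. The 3 libraries form a single group, with no second group to pair them with. Arms were measured in the same libraries, so they are paired by library, and ratios between arms were taken within each library.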

Other observations

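Reads were also found just before the 5p arm of Mir301, mostly beginning a few bases upstream of the RefSeq hairpin and running through its first bases. Within 25 bases before the 5p start, 129, 105 and 63.5 reads began in libraries 1, 2 and 3, compared with 74, 81 and 73 reads of miR-301a-5p itself. In RPM these were 13.9, 9.71 and 6.21 (9.95 ± 3.87, SD, n = 3), so the spread between libraries was wider than for miR-301a-5p (7.54 ± 0.42 RPM). Of these reads, 98.6% ± 0.87 ended at the base directly before the 5p start, and 51.9% ± 4.70, 28.3% ± 6.55 and 17.1% ± 1.58 were 19, 17 and 18 nt long (SD, n = 3).

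At Mir130b, 7.25, 27.25 and 26 reads lay in the corresponding window, and all of them ended at the base directly before the 5p start. At Mir130a there were 1, 3 and 1 such reads. At Mir301b there were 0 in every library, which allows up to 3 reads. The region between the arms held at most 5.86 reads in any library at any of the 4 hairpins. These reads were examined after their values were seen, and no test was run on them.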
